A study of Homo sapiens with 9 samples.

Results

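The mitosis genes are 40 genes of cell division, taken by symbol from a list, out of 60612 genes in the deposited table. This list and the other gene lists below were chosen with earlier results of these data known. Their counts beside those of all tested genes are therefore a description and not an independent test. All 40 were found, and all 40 were among the 16990 genes with enough counts to be tested. They comprise 16 spindle genes (9 kinesin motors and 7 other spindle proteins), 8 kinetochore genes, 5 genes of the cyclins and of CDK1 control, 4 genes of other mitotic kinases and their partner, 3 genes of the anaphase-promoting complex and its target, and 4 genes of chromosome structure. They were measured by sequencing of messenger RNA from HSC-3, an established cell line of human oral squamous cell carcinoma. There were 3 libraries in each of 3 groups. MPTN was taken as the HSC-3 line kept in apatinib until it was resistant, MPTN24 as HSC-3 treated with apatinib for 24 h, and WT as the untreated parental line. Apatinib is a kinase inhibitor aimed at the VEGF receptor KDR. The meaning of MPTN and MPTN24 was inferred, because the labels give these names and the series text gives the treatments. The labels do not state whether MPTN cells were in the drug at harvest, how many resistant lines were made, or whether the libraries of a group came from separate cultures, so the p-values reflect the scatter of these samples alone, and that scatter may be technical.

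Cells enter mitosis when B-type cyclins activate the kinase CDK1. The spindle, built from microtubules, motors and crosslinking proteins, then attaches to each chromosome at its kinetochore, and a checkpoint holds the anaphase-promoting complex until attachment is complete. Most of these genes are transcribed late in the cell cycle, so in a bulk culture their transcripts are a common readout of how much of the culture is dividing. Their promoters often hold CCAAT boxes, bound by NF-Y, and a cell cycle homology region, through which the MuvB core represses them together with RBL1 or RBL2 and E2F4 (the DREAM complex) and activates them together with MYBL2 and FOXM1.

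Total counts per library ranged from 70969935 to 98890929 in MPTN, from 60383313 to 65256683 in MPTN24 and from 65227021 to 88923424 in WT. Epithelial marker genes (8 of 8 with counts in every group) summed to 13061 to 15146 CPM in MPTN, 14088 to 15738 CPM in MPTN24 and 15088 to 20164 CPM in WT, where CPM is the count over the library total scaled by TMM, in the usual unit. The 8 leukocyte markers summed to at most 0.132 CPM in any library. The 6 fibroblast and endothelial markers summed to 1.68 to 1.79 CPM in MPTN, 1.46 to 2.59 CPM in MPTN24 and 1.16 to 3.05 CPM in WT. MPTN 3 and WT 1 stood apart from the rest of their groups. The chi-square of counts per gene, after division by 4 because 1 read pair often appeared to give 4 counts, was 19.5 and 15.3 for the pairs of MPTN 3, beside 3.33 for MPTN 1 with MPTN 2. It was 33.0 and 34.6 for the pairs of WT 1, beside 9.82 for WT 2 with WT 3, and 3.71 to 8.41 within MPTN24. Counts of falls among the mitosis genes are therefore also given without MPTN 3 and without WT 1. Results of the other gene lists and the relation to transcript length are given with all libraries only. How far those rest on MPTN 3 or WT 1 was not tested. Transcripts of the 13 mitochondrial protein genes took 3.78% to 4.21% of counts in MPTN, 4.06% to 4.65% in MPTN24, and 3.55% in WT 1 against 1.92% and 2.19% in WT 2 and WT 3. Their part in the results was not tested.

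Promoters of 6 members are printed because they show the contrast among these genes: KIF11 and MKI67 were among those that fell furthest, PLK1 fell in MPTN and had no call at 24 h, HMMR and PTTG1 had no call in any comparison of the fit to all 9 libraries, and KIF2C fell without either motif in its window. Each runs 5′ to 3′ on the gene's own strand from 150 bases before to 30 bases after the start in RefSeq (GRCh38.p14). Capitals mark the hexamer TTTGAA or TTCGAA of the cell cycle homology region and the CCAAT box, each searched on both strands, so that TTCAAA and ATTGG are also capitals; adjoining or overlapping matches run together.
KIF11, chr10:92592980-92593159, plus strand: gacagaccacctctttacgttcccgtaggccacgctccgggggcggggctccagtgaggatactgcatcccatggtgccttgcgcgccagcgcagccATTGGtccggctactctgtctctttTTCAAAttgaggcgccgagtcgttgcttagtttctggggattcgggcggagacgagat
MKI67, chr10:128126394-128126573, minus strand: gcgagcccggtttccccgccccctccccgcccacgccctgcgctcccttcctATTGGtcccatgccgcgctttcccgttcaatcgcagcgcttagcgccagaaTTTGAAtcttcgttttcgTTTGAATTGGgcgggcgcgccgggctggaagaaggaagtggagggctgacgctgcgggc
PLK1, chr16:23678739-23678918, plus strand: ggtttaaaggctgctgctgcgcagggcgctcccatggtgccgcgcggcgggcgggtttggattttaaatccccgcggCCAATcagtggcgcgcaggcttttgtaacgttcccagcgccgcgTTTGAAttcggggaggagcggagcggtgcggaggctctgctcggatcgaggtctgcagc
HMMR, chr5:163460482-163460661, plus strand: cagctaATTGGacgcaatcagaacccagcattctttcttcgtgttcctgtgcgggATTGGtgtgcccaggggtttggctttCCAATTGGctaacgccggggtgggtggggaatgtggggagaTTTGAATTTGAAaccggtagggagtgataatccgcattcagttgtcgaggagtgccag
KIF2C, chr1:44739687-44739866, plus strand: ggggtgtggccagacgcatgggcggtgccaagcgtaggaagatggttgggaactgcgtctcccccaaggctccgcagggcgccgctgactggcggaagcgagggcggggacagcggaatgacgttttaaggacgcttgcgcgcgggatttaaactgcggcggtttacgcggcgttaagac
PTTG1, chr5:160421705-160421884, plus strand: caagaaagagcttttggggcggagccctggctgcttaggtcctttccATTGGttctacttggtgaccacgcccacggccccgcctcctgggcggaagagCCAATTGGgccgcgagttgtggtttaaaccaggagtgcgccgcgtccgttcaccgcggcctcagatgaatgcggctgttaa

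Summed over the 40 genes, transcripts were lowest in MPTN, intermediate in MPTN24 and highest in WT. The 40 genes together took 0.274%, 0.274% and 0.264% of all counts in the MPTN libraries, 0.366%, 0.383% and 0.384% in the MPTN24 libraries and 0.498%, 0.456% and 0.435% in the WT libraries, with no overlap between the groups. In these bulk samples, fewer dividing cells and less RNA per dividing cell cannot be told apart. Against WT, 36 of the 40 fell in MPTN and 0 rose (edgeR's quasi-likelihood test, Benjamini-Hochberg adjusted p under 0.05), while 18.1% of all tested genes fell and 18.3% rose. In the same comparison 36 had all 3 MPTN libraries below all 3 WT libraries, against 22.6% of all tested genes. At 24 h, 25 of the 40 fell against WT and 0 rose, while 12.1% of all tested genes fell and 11.1% rose. All 3 MPTN24 libraries were below all 3 WT libraries for 25, against 19.2% of all tested genes. Between MPTN and MPTN24, 34 fell and 0 rose, while 6.7% of all tested genes fell and 7.85% rose, and 36 had all 3 MPTN libraries below all 3 MPTN24 libraries, against 18.1% of all tested genes. At an unadjusted p under 0.05, 1 gene was higher in any comparison, CDC25C at 24 h, which rose without MPTN24 2; DESeq2 and limma called 0 rises. The 3 comparisons share libraries and are not independent of each other.

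The median log2 change of the 40 was -0.91 in MPTN against WT, -0.32 in MPTN24 against WT and -0.58 in MPTN against MPTN24, where the medians over all tested genes were 0.02, 0.0047 and 0.01. In MPTN against WT the changes ranged from -1.60 for MKI67 to -0.11 for PTTG1. All 36 calls of MPTN against WT were kept in each of 20 alternative analyses, which left out a library or changed the method. At 24 h the count of falls was 9 without MPTN24 1, 12 without MPTN24 2, 14 without MPTN24 3 and 13 without WT 2, and 18 without WT 1. It was 15 with upper-quartile scaling, 11 and 12 with limma on the FPKM, and 11 with offsets for GC content and transcript length. CCNA2, CENPA, KIF11, KIF23, NUSAP1 and ANLN kept their 24 h call in all 20 alternatives. Without WT 1, MPTN had 36 falls against WT and 35 against MPTN24. Without MPTN 3 it had 37 and 30, and MPTN24 had 25 falls against WT.

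**Figure D1:**
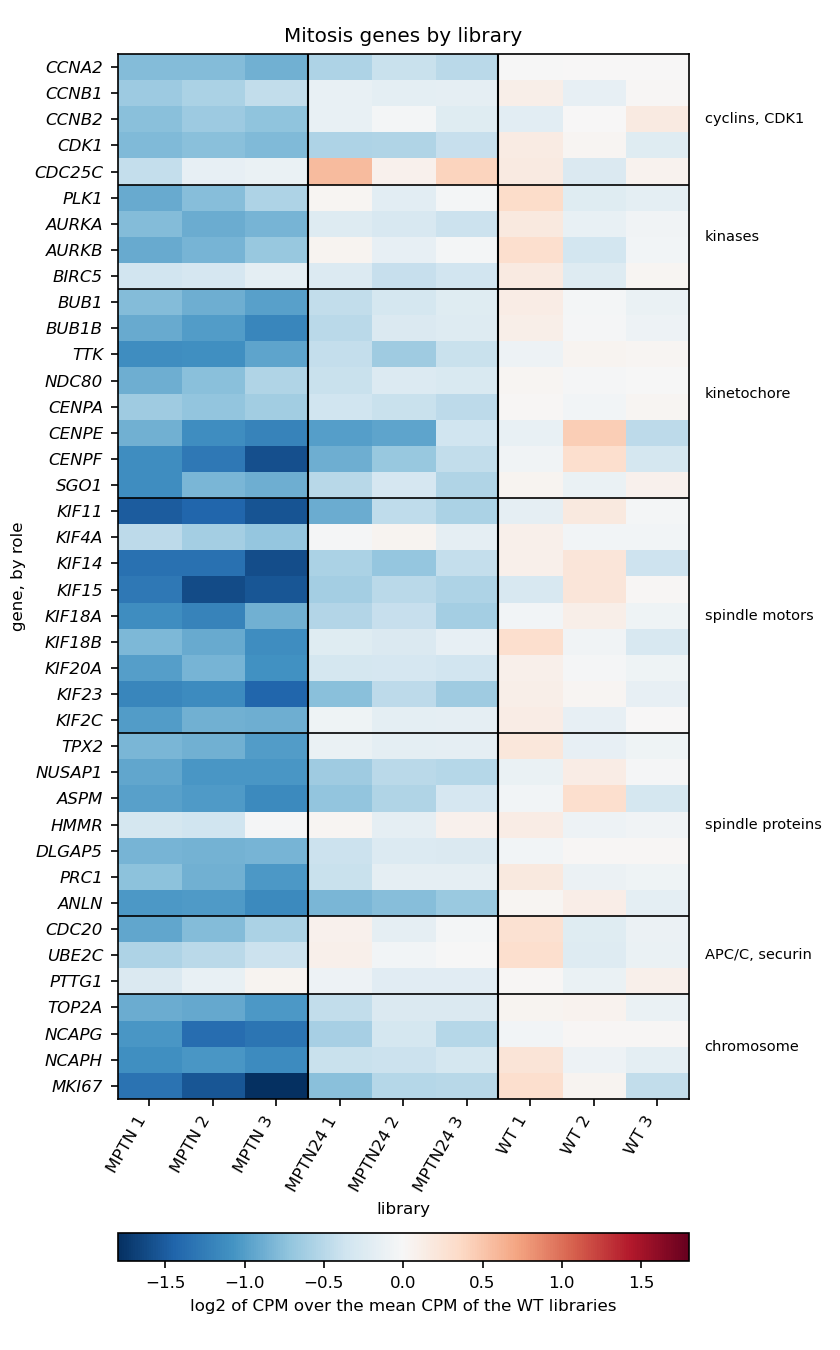
Level of each of the 40 mitosis genes (rows, by role) in each library (columns, grouped as MPTN, MPTN24 and WT), as log2 of its CPM over the mean CPM of the 3 WT libraries. The MPTN columns are blue for nearly all genes, and CDC25C, BIRC5, HMMR and PTTG1 are the 4 genes with no call in MPTN against WT.

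Cyclin and CDK1 genes had smaller median changes than spindle or kinetochore genes. Of the 5 genes of cyclins and CDK1 control, 4 fell in MPTN against WT (median log2 change -0.71), 2 fell at 24 h (median -0.15) and 4 fell in MPTN against MPTN24 (median -0.40). CCNB1 (ENSG00000134057, chromosome 5, 69167135 to 69178245) encodes cyclin B1, the main activator of CDK1 at mitotic entry. It stood at 165, 175 and 192 CPM in MPTN, 238, 231 and 233 CPM in MPTN24, and 281, 235 and 265 CPM in WT. The MPTN libraries were all below the others and MPTN24 overlapped WT. The fall was called in MPTN against WT (log2 change -0.55 ± 0.10, edgeR adjusted p = 0.0005) and in MPTN against MPTN24 (log2 change -0.40 ± 0.10, edgeR adjusted p = 0.013), where it was lost without MPTN24 1 (0.054), MPTN24 3 (0.054), MPTN 1 (0.064) or MPTN 2 (0.059), but not at 24 h (log2 change -0.15 ± 0.10, edgeR adjusted p = 0.27). CCNB2, its close relative, showed the same order, with a log2 change of -0.71 ± 0.10 in MPTN against WT and -0.13 ± 0.10 at 24 h (edgeR adjusted p = 0.42).

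CCNA2 (ENSG00000145386, chromosome 4, 121816444 to 121823883) encodes cyclin A2, which acts from S phase into early mitosis. It was at 71.9, 71.5 and 67.8 CPM in MPTN, 84.1, 93.8 and 88.5 CPM in MPTN24, and 123, 124 and 123 CPM in WT. The groups did not overlap in any comparison, and the SD of the 3 WT libraries was 0.39 CPM. Its fall was -0.47 ± 0.08 at 24 h (log2, edgeR adjusted p = 0.0018) and -0.81 ± 0.08 in MPTN against WT. CDK1, the kinase itself, was at 70.9, 72.8 and 70.7 CPM in MPTN, 83.3, 84.2 and 92.7 CPM in MPTN24, and 136, 127 and 106 CPM in WT. CDK1 fell at 24 h (log2 change -0.50 ± 0.10, edgeR adjusted p = 0.0036), a call lost with offsets for GC content and transcript length (log2 change -0.29, edgeR adjusted p = 0.081). It was lower still in each MPTN library, but the difference of MPTN from MPTN24 did not pass (log2 change -0.28 ± 0.10, edgeR adjusted p = 0.082); it passed without WT 1 (0.034), with DESeq2 (0.045), in a fit to those 2 groups alone (0.025) and with the offsets (log2 change -0.45, edgeR adjusted p = 0.013). CDC25C, the phosphatase that removes inhibitory phosphates from CDK1, was the exception of the class. It was at 12.5, 15.2 and 15.5 CPM in MPTN, 24.9, 17.7 and 22.1 CPM in MPTN24, and 18.8, 14 and 17.7 CPM in WT. MPTN24 lay above the other groups in 2 of its 3 libraries, and only MPTN against MPTN24 passed (log2 change -0.58 ± 0.15, edgeR adjusted p = 0.021), a call lost without MPTN24 1 (0.1), MPTN24 3 (0.076), MPTN 1 (0.09) or MPTN 2 (0.052) and with limma (0.052 at either pseudocount).

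Of the 4 genes of spindle pole and centromere kinases, which include the AURKB partner BIRC5, 3 fell in MPTN against WT (median log2 change -0.77) and 3 in MPTN against MPTN24 (median -0.61). At 24 h 2 fell (median -0.18), a count that ran from 0 to 2 over the alternatives and was 0 without WT 1. PLK1 (ENSG00000166851, chromosome 16, 23677656 to 23690367) encodes polo-like kinase 1, which acts at centrosomes, kinetochores and the midzone. PLK1 was at 81.5, 89.8 and 104 CPM in MPTN, 157, 134 and 149 CPM in MPTN24, and 192, 131 and 136 CPM in WT. All MPTN libraries were below the others (log2 change -0.74 ± 0.14, edgeR adjusted p = 0.001 against WT; log2 change -0.68 ± 0.14, edgeR adjusted p = 0.0057 against MPTN24), and at 24 h the log2 change was -0.06 ± 0.14 (edgeR adjusted p = 0.81). AURKB, the catalytic subunit of the chromosomal passenger complex that corrects faulty attachments, was at 89.2, 93.9 and 105 CPM in MPTN, 173, 152 and 165 CPM in MPTN24, and 207, 134 and 163 CPM in WT, again with MPTN apart and MPTN24 inside the range of WT. AURKA, the kinase of the spindle poles, fell in all 3 comparisons, by 0.84 on the log2 scale in MPTN against WT and by 0.30 at 24 h, where the call was lost without WT 1, WT 3, any 1 of the MPTN24 libraries, MPTN 1 or MPTN 2 (0.053 to 0.16). BIRC5, or survivin, binds AURKB in the passenger complex, yet was at 155, 160.4 and 175 CPM in MPTN, 166, 149 and 155 CPM in MPTN24, and 221, 168 and 202 CPM in WT. Its MPTN and WT libraries overlapped and the change did not pass (log2 change -0.27 ± 0.11, edgeR adjusted p = 0.062), although it did without WT 2 (0.015), with DESeq2 (0.038) and with the offsets (0.0095). MPTN did not differ from MPTN24 beyond the spread (log2 change 0.06 ± 0.11, edgeR adjusted p = 0.78), and its fall at 24 h (log2 change -0.33 ± 0.11, edgeR adjusted p = 0.038) was lost without WT 1 (0.089), WT 3 (0.094), any 1 of the MPTN24 libraries (0.069 to 0.17) or MPTN 2 (0.061).

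All 8 kinetochore genes fell in MPTN against WT (median log2 change -0.98). All 8 fell at 24 h (median -0.43) and 6 fell in MPTN against MPTN24 (median -0.52). CENPF (ENSG00000117724, chromosome 1, 214603195 to 214664571) encodes a large coiled-coil protein of the outer kinetochore. CENPF was at 45.6, 40.2 and 32.8 CPM in MPTN, 53.3, 61.6 and 72.1 CPM in MPTN24, and 94.3, 122 and 79.3 CPM in WT. The 3 groups did not overlap, although the WT libraries were spread widely, and CENPF had the deepest fall of the class in MPTN against WT (log2 change -1.32 ± 0.16, edgeR adjusted p = 4.3e-05). CENPE, the kinesin that carries chromosomes to the spindle equator, was at 13.4, 11.2 and 10.6 CPM in MPTN, 12.3, 12.6 and 18.9 CPM in MPTN24, and 22.2, 33.2 and 17.6 CPM in WT. WT 2 was far above the other WT libraries, and MPTN24 3 lay above WT 3. The 24 h fall (log2 change -0.74 ± 0.22, edgeR adjusted p = 0.032) was lost without WT 2 (0.13), MPTN24 1 (0.13), MPTN24 2 (0.12), MPTN 2 (0.052) or MPTN 3 (0.051), and with the offsets it was -0.41 (edgeR adjusted p = 0.097).

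The checkpoint kinases were close to each other in MPTN against WT. TTK (ENSG00000112742, chromosome 6, 80003887 to 80042527), or MPS1, the kinase that starts the spindle assembly checkpoint, was at 16.9, 17 and 18.9 CPM in MPTN, 27.2, 23.6 and 27.7 CPM in MPTN24, and 34.4, 37.9 and 37.7 CPM in WT. Its groups were separate in every comparison (log2 change -1.06 ± 0.11, edgeR adjusted p = 9e-06 against WT; log2 change -0.49 ± 0.11, edgeR adjusted p = 0.0062 at 24 h), and its 24 h call was lost with the offsets (log2 change -0.29, edgeR adjusted p = 0.086). BUB1 and BUB1B, which work downstream of TTK in the same checkpoint, changed by -0.88 ± 0.10 and -1.02 ± 0.11 in MPTN against WT (log2). The 24 h call of BUB1B had an adjusted p that rounds to 0.05 and was lost in 16 of the 20 alternatives. NDC80, which binds microtubules at the outer kinetochore, changed by -0.72 ± 0.11 and SGO1, shugoshin, which protects cohesin at centromeres, by -0.93 ± 0.14 in the same comparison. CENPA (ENSG00000115163, chromosome 2, 26764289 to 26801067), the histone variant that marks centromeres, was at 24, 22.8 and 24.3 CPM in MPTN, 29.2, 28.2 and 26.9 CPM in MPTN24, and 37.8, 36.3 and 38.2 CPM in WT. Libraries of a group lay close together for CENPA, and its fall was the smallest of the class in MPTN against WT (log2 change -0.66 ± 0.10, edgeR adjusted p = 0.00014) but was kept in every alternative at 24 h (log2 change -0.41 ± 0.10, edgeR adjusted p = 0.008). Without WT 1 the number of kinetochore falls at 24 h was 4 of 8, and over the 20 alternatives it ran between 2 and 8, while it was 8 of 8 in all of them for MPTN against WT.

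All 9 spindle motors fell in MPTN against WT (median log2 change -1.06) and all 9 fell in MPTN against MPTN24 (median -0.73), while 6 fell at 24 h (median -0.52). KIF11 (ENSG00000138160, chromosome 10, 92593130 to 92655395) encodes Eg5, the kinesin that pushes spindle poles apart. KIF11 was at 42.2, 44.4 and 40.4 CPM in MPTN, 64.3, 86.5 and 80.0 CPM in MPTN24, and 107, 134 and 116 CPM in WT. The 3 groups were separate, with MPTN at 35.6% of WT (log2 change -1.49 ± 0.12, edgeR adjusted p = 1.6e-06) and MPTN24 between them (log2 change -0.63 ± 0.12, edgeR adjusted p = 0.0026 against WT). KIF15, a kinesin that can stand in for Eg5, was the least abundant motor, at 5.42, 4.34 and 4.56 CPM in MPTN, 8.63, 9.45 and 9.04 CPM in MPTN24, and 10.9, 15.4 and 13.5 CPM in WT, and fell as far (log2 change -1.47 ± 0.16, edgeR adjusted p = 1.2e-05). KIF14, a kinesin of cytokinesis, was at 14.1, 14.1 and 11.8 CPM in MPTN, 24.1, 22.2 and 26.5 CPM in MPTN24, and 38.3, 41.6 and 27.6 CPM in WT. The groups of both did not overlap. The 24 h call of KIF15 was lost without WT 2 (0.097), WT 3 (0.051), MPTN24 1 (0.082) or MPTN24 3 (0.068), and that of KIF14 without WT 2 (0.07), MPTN24 1 (0.058) or MPTN24 2 (0.069).

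The motors of the midzone fell by different amounts. KIF23 (ENSG00000137807, chromosome 15, 69414246 to 69448427), part of the centralspindlin complex that sets the cleavage site, was at 43.3, 44.4 and 36.3 CPM in MPTN, 57.9, 70.4 and 62.5 CPM in MPTN24, and 105, 100.02 and 88.2 CPM in WT, a fall of 0.62 at 24 h and of 1.24 in MPTN against WT on the log2 scale (edgeR adjusted p = 0.002 and 3.6e-06). KIF20A, which brings the passenger complex to the midzone, changed by -0.97 ± 0.09 and KIF4A, the chromokinesin that sets midzone length with PRC1, by -0.59 ± 0.10 in MPTN against WT. KIF4A was at 57.2, 52.3 and 49.2 CPM in MPTN, 78.3, 82.4 and 71.2 CPM in MPTN24, and 84.8, 77 and 76.9 CPM in WT, so that MPTN24 and WT overlapped while MPTN was apart. Of the motors that act on microtubule ends, KIF18A, which damps chromosome movement, changed by -1.06 ± 0.12, KIF18B, which shortens astral microtubules, by -0.94 ± 0.14, and KIF2C, the depolymerase MCAK, by -0.92 ± 0.10 in MPTN against WT. Only KIF18A of these passed at 24 h (log2 change -0.52 ± 0.12, edgeR adjusted p = 0.0083), a call lost with the offsets (log2 change -0.27, edgeR adjusted p = 0.11). With the offsets the 24 h fall of KIF18B passed instead (edgeR adjusted p = 0.022). KIF2C was at 78.1, 85.9 and 85.3 CPM in MPTN, 149, 138 and 139.8 CPM in MPTN24, and 172, 141 and 158 CPM in WT. Its log2 change at 24 h was -0.14 ± 0.09 (edgeR adjusted p = 0.31).

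Of the 7 other spindle proteins, 6 fell in MPTN against WT (median log2 change -0.89), 4 fell at 24 h (median -0.30) and 6 fell in MPTN against MPTN24 (median -0.54). ANLN (ENSG00000011426, chromosome 7, 36389821 to 36453791) encodes anillin, the scaffold of the contractile ring. ANLN was at 120.1, 122 and 111 CPM in MPTN, 139, 145 and 156 CPM in MPTN24, and 253, 268 and 218 CPM in WT. Its fall at 24 h was the deepest 24 h fall of the 40 (log2 change -0.75 ± 0.10, edgeR adjusted p = 0.00033). The difference of MPTN from MPTN24 was smaller (log2 change -0.32 ± 0.10, edgeR adjusted p = 0.045). That call was lost without any 1 of the MPTN or MPTN24 libraries (0.077 to 0.19). TPX2, which activates AURKA and seeds microtubules near chromosomes, was close to WT at 24 h and low in MPTN. It was at 158, 154 and 139 CPM in MPTN, 256, 248 and 249 CPM in MPTN24, and 321, 253 and 264 CPM in WT, with no call at 24 h (log2 change -0.15 ± 0.10, edgeR adjusted p = 0.31) and a fall in MPTN against MPTN24 (log2 change -0.74 ± 0.10, edgeR adjusted p = 0.00039).

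NUSAP1, which bundles microtubules around chromosomes, was at 35, 32.5 and 32.4 CPM in MPTN, 43.1, 48.1 and 47.1 CPM in MPTN24, and 61.5, 73.4 and 66.2 CPM in WT, a fall of 1.01 in MPTN against WT on the log2 scale. ASPM, a protein of the spindle poles, changed by -1.04 ± 0.15, DLGAP5, which stabilises kinetochore fibres, by -0.84 ± 0.09, and PRC1, which crosslinks antiparallel microtubules in the midzone, by -0.87 ± 0.11 in the same comparison. HMMR (ENSG00000072571, chromosome 5, 163460203 to 163491941), a microtubule-binding protein of the spindle that is also known as a hyaluronan receptor, was at 29, 28 and 35.5 CPM in MPTN, 36.9, 32.2 and 38.2 CPM in MPTN24, and 39.8, 34 and 34.5 CPM in WT. Its groups overlapped in every comparison and none passed (log2 change -0.23 ± 0.12 in MPTN against WT, edgeR adjusted p = 0.16), but without MPTN 3 the fall against WT passed (log2 change -0.34, edgeR adjusted p = 0.045).

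Of the 3 genes around the anaphase-promoting complex, 2 fell in MPTN against WT (median log2 change -0.47) and the same number against MPTN24 (median -0.48), and none passed at 24 h (median -0.04). CDC20 (ENSG00000117399, chromosome 1, 43358981 to 43363203), the activator of the anaphase-promoting complex that the checkpoint holds back, was at 227, 253 and 291 CPM in MPTN, 455, 385 and 423 CPM in MPTN24, and 524, 371 and 402 CPM in WT. MPTN24 lay inside the range of WT (log2 change -0.04 ± 0.13, edgeR adjusted p = 0.88) and MPTN was below both (log2 change -0.75 ± 0.13, edgeR adjusted p = 0.00063 against WT). UBE2C, the ubiquitin-conjugating enzyme of that complex, was at 81.1, 85 and 91.5 CPM in MPTN, 127, 115 and 118 CPM in MPTN24, and 147, 101 and 110.3 CPM in WT. MPTN was again below both other groups, MPTN24 lay inside the range of WT, and the fall in MPTN against WT was smaller than that of CDC20 (log2 change -0.47 ± 0.12, edgeR adjusted p = 0.0078). PTTG1 (ENSG00000164611, chromosome 5, 160421855 to 160428739) encodes securin, the inhibitor of separase that the complex destroys at anaphase. It was at 138, 151 and 171 CPM in MPTN, 155, 145 and 144 CPM in MPTN24, and 168, 152 and 178 CPM in WT. Its groups overlapped and no comparison passed (log2 change -0.11 ± 0.10 in MPTN against WT, edgeR adjusted p = 0.42), but with the offsets the fall against WT passed (log2 change -0.22, edgeR adjusted p = 0.028).

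The 4 chromosome genes all fell in MPTN against WT (median log2 change -1.16), as they did in MPTN against MPTN24 (median -0.74), and 3 fell at 24 h (median -0.42). MKI67 (ENSG00000148773, chromosome 10, 128096659 to 128126423) encodes Ki-67, which coats mitotic chromosomes and is the usual histological marker of dividing cells. MKI67 was at 125, 108 and 76.9 CPM in MPTN, 186, 219 and 222 CPM in MPTN24, and 387, 324 and 230.0 CPM in WT. It had the largest change of the 40 in MPTN against WT (log2 change -1.60 ± 0.20, edgeR adjusted p = 0.00014), with MPTN at 32.9% of WT. At 24 h its 3 MPTN24 libraries were below all WT libraries, but the WT libraries spread from 230.0 to 387 CPM and the change did not pass (log2 change -0.59 ± 0.20, edgeR adjusted p = 0.055). It passed in 6 alternatives: without WT 3, MPTN 1 or MPTN 3 (0.0086, 0.043 and 0.023), with DESeq2 (0.0078), in a fit to the 2 groups alone (0.033) and with a replicate block (0.038). NCAPG and NCAPH, subunits of condensin I, which compacts chromosomes, changed by -1.24 ± 0.11 and -1.09 ± 0.11 in MPTN against WT. TOP2A, the topoisomerase that untangles sister chromatids, was at 173, 169 and 157 CPM in MPTN, 238, 268 and 269 CPM in MPTN24, and 332, 338 and 296 CPM in WT, a change of -0.95 ± 0.09 in that comparison (edgeR adjusted p = 6.8e-06).

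**Figure D2:**
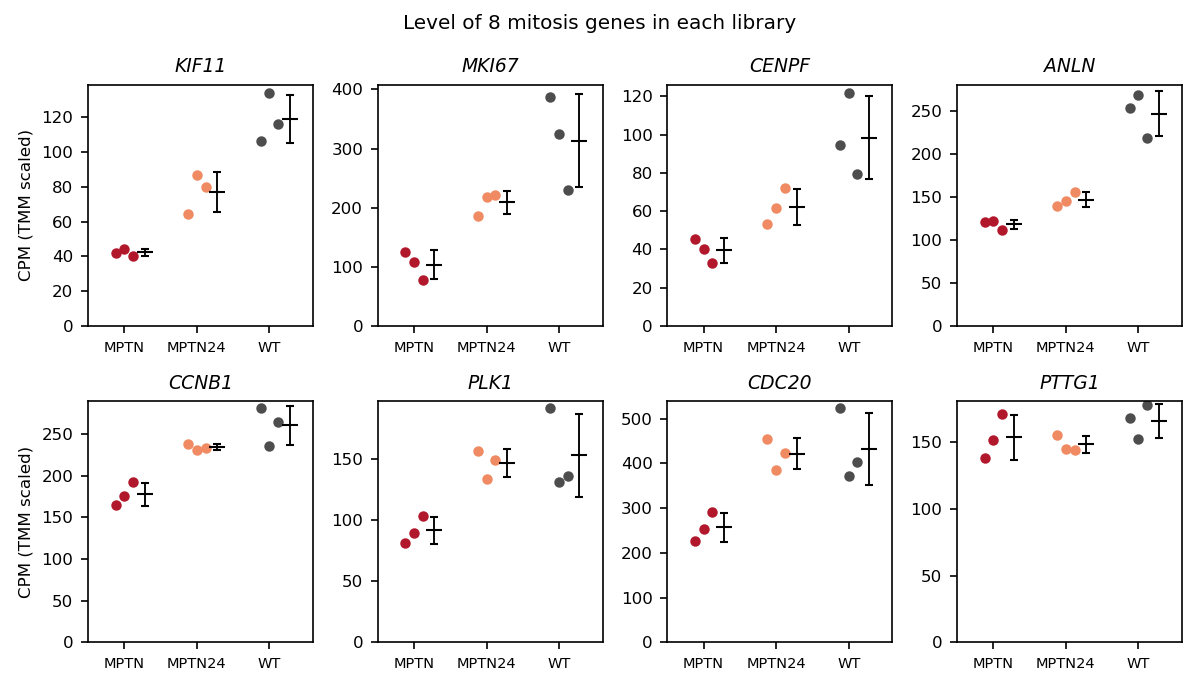
CPM (TMM scaled, vertical axis from 0) of 8 mitosis genes in each library of MPTN, MPTN24 and WT. Points are libraries, and the bar beside them is the mean with its SD (n = 3). KIF11, CENPF and ANLN fell in both groups against WT, and CCNB1, PLK1, CDC20 and MKI67 in MPTN alone, while all MPTN24 libraries of MKI67 also lay below WT; the PTTG1 libraries overlapped.

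**Figure D3:**
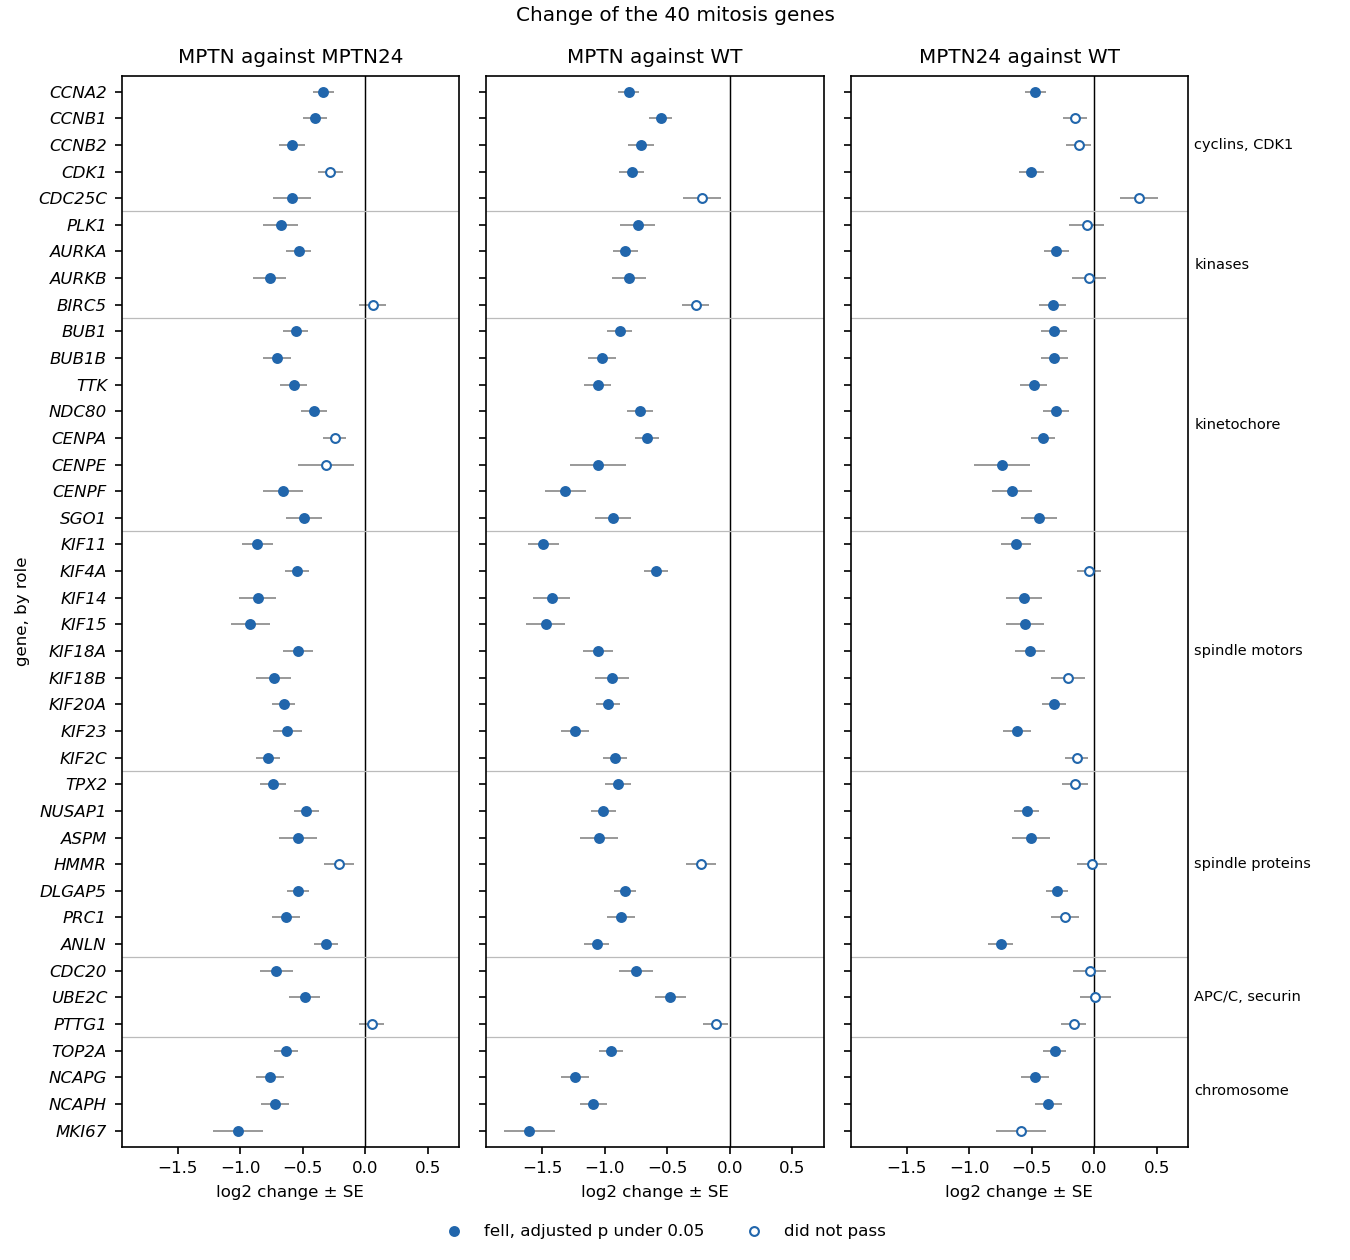
log2 change with its SE (horizontal axis) of each of the 40 genes (rows, by role) in MPTN against MPTN24, MPTN against WT and MPTN24 against WT, from the edgeR fit to 9 libraries. Filled points fell with an adjusted p under 0.05 and open points did not pass. No point passed on the right of 0.

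Set side by side, spindle and kinetochore genes fell to a similar depth in MPTN against WT, and cyclin genes less. The median log2 changes were -0.99 for the 16 spindle genes, -0.98 for the 8 kinetochore genes and -0.71 for the 5 cyclin and CDK1 genes. Measured per library as the mean log2 CPM of a class minus its mean over WT, the spindle class stood at -0.95, -0.99 and -1.05 in MPTN and -0.43, -0.35 and -0.34 in MPTN24, against 0.05, 0.05 and -0.10 in WT. The kinetochore class stood at -0.92, -0.95 and -0.98 in MPTN and -0.55, -0.46 and -0.36 in MPTN24, against 0.02, 0.08 and -0.10 in WT. For both classes every MPTN library was below every MPTN24 library, and these below every WT library. The cyclin class stood at -0.68, -0.58 and -0.58 in MPTN and -0.16, -0.21 and -0.17 in MPTN24, against 0.05, -0.07 and 0.01 in WT, which is the same order with smaller steps.

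The difference between classes within a library does not depend on library scaling. Spindle minus cyclin (mean log2 CPM) was -0.52, -0.66 and -0.72 in MPTN and -0.52, -0.39 and -0.42 in MPTN24, against -0.25, -0.13 and -0.36 in WT. Kinetochore minus cyclin was -1.32, -1.45 and -1.48 in MPTN and -1.47, -1.33 and -1.27 in MPTN24, against -1.12, -0.93 and -1.19 in WT. Both differences were thus lower in every MPTN and MPTN24 library than in every WT library, with CDC25C in the class. MPTN24 and MPTN overlapped for kinetochore minus cyclin. For spindle minus cyclin they met, at -0.52 in both MPTN 1 and MPTN24 1. Spindle minus kinetochore was 0.80, 0.80 and 0.76 in MPTN, 0.95, 0.95 and 0.85 in MPTN24 and 0.87, 0.81 and 0.83 in WT, with MPTN below both other groups and MPTN24 overlapping WT. The cyclin class holds 5 genes, so CDC25C, with no fall against WT, weighs heavily in it. At 24 h CDC25C alone of the class had a positive change (log2 0.36 ± 0.15, no call). The other 4 ran from -0.50 (CDK1) to -0.13 (CCNB2). The 24 h separation from WT may rest on CDC25C and is not shown for the class without it. No test was made of these class differences, since the genes of a class are not replicates.

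**Figure D4:**
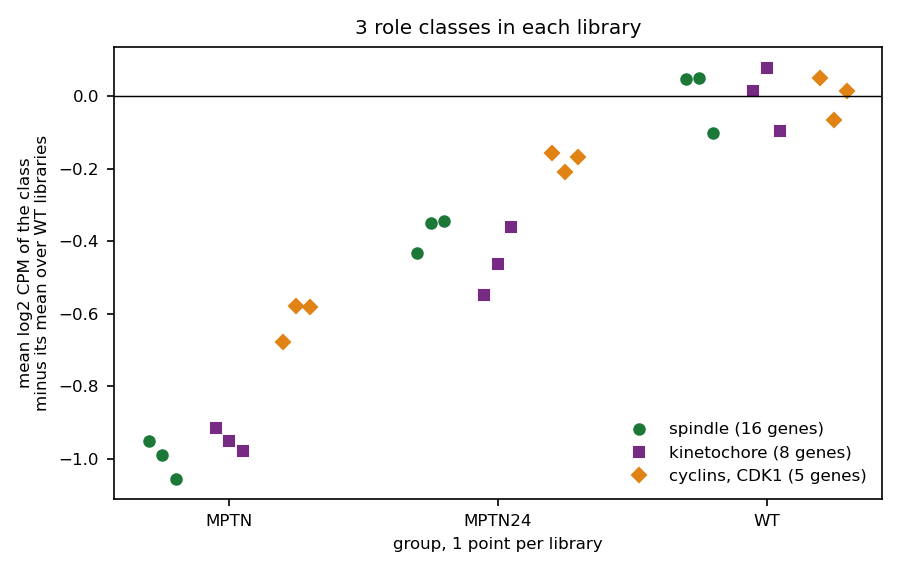
Mean log2 CPM of the 16 spindle, 8 kinetochore and 5 cyclin and CDK1 genes, minus the mean of the class over the WT libraries (vertical axis), with 1 point per library of MPTN, MPTN24 and WT. Spindle and kinetochore points lie near -1 in MPTN, and cyclin points between -0.68 and -0.58.

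The comparisons in which a fall was called differed between genes. For 21 genes it passed in all 3 comparisons: CCNA2, AURKA, BUB1, BUB1B, TTK, NDC80, CENPF, SGO1, KIF11, KIF14, KIF15, KIF18A, KIF20A, KIF23, NUSAP1, ASPM, DLGAP5, ANLN, TOP2A, NCAPG and NCAPH. A further 12 passed in MPTN against both other groups and not at 24 h, namely CCNB1, CCNB2, PLK1, AURKB, KIF4A, KIF18B, KIF2C, TPX2, PRC1, CDC20, UBE2C and MKI67. Of these, MKI67 had a log2 change of -0.59 at 24 h and a call in 6 alternatives. KIF18B had a 24 h call with the offsets for GC content and length (edgeR adjusted p = 0.022). CDK1, CENPA and CENPE passed in both groups against WT but not between MPTN and MPTN24. Between those groups CENPA changed by -0.25 ± 0.10 (log2, edgeR adjusted p = 0.10) and CENPE by -0.32 ± 0.22 (log2, edgeR adjusted p = 0.40). With the offsets, CDK1 and all 8 kinetochore genes passed there. A call in one comparison and not in another does not show that the changes differ; the test that bears on it is MPTN against MPTN24, which the 12 genes passed with log2 changes between -1.02 (MKI67) and -0.40 (CCNB1). In that comparison 10 of the 34 calls were lost when 1 library was left out: ANLN, ASPM, CCNA2, CCNB1, CDC25C, CENPF, KIF18A, NDC80, SGO1 and UBE2C, with adjusted p of at most 0.19, for ANLN without MPTN24 3. The count was lowest, at 24, without MPTN 2. At 24 h against WT, 9 of the 25 calls were kept whichever library was left out (CCNA2, CDK1, TTK, CENPA, KIF11, KIF18A, KIF23, NUSAP1 and ANLN); the highest adjusted p among the others was 0.20, for BUB1B without MPTN24 1.

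The fall was deeper for longer transcripts. UBE2C and PTTG1, with the shortest transcripts (914 and 1070 bases, longest annotated), changed by -0.47 and -0.11 in MPTN against WT, and MKI67, ASPM and CENPF, with the longest (12678, 10887 and 10307 bases), by -1.60, -1.04 and -1.32. Across the 40 genes, which share the same libraries and are not independent replicates, the log2 change in MPTN against WT went with log2 length at Pearson's r -0.68 and Spearman's rho -0.73, against -0.08 and -0.14 across 16809 tested genes with a length. At 24 h these were -0.56 and -0.55 for the 40 genes and -0.06 and -0.12 for all, and the change went with GC content at r 0.57 and rho 0.56 for the 40 and 0.25 and 0.38 for all. Offsets for GC content and length were fitted to the trend over all tested genes with a length, not over the 40. With them, 38 genes fell in MPTN against WT, BIRC5 and PTTG1 being the further calls. At 24 h 11 fell, and 37 fell in MPTN against MPTN24. The spindle, kinetochore and cyclin medians were then -0.93, -0.88 and -0.65 in MPTN against WT, and -0.28, -0.29 and -0.04 at 24 h. Spindle minus cyclin moved by -0.35 in MPTN against WT. Because the trend with length over all genes is weaker than that of the 40, a relation to length may remain. Transcripts of the cyclin and CDK1 genes, from 1948 (CDK1) to 2797 bases (CCNA2), were shorter than those of most spindle genes. Length and class were thus not separated.

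**Figure D5:**
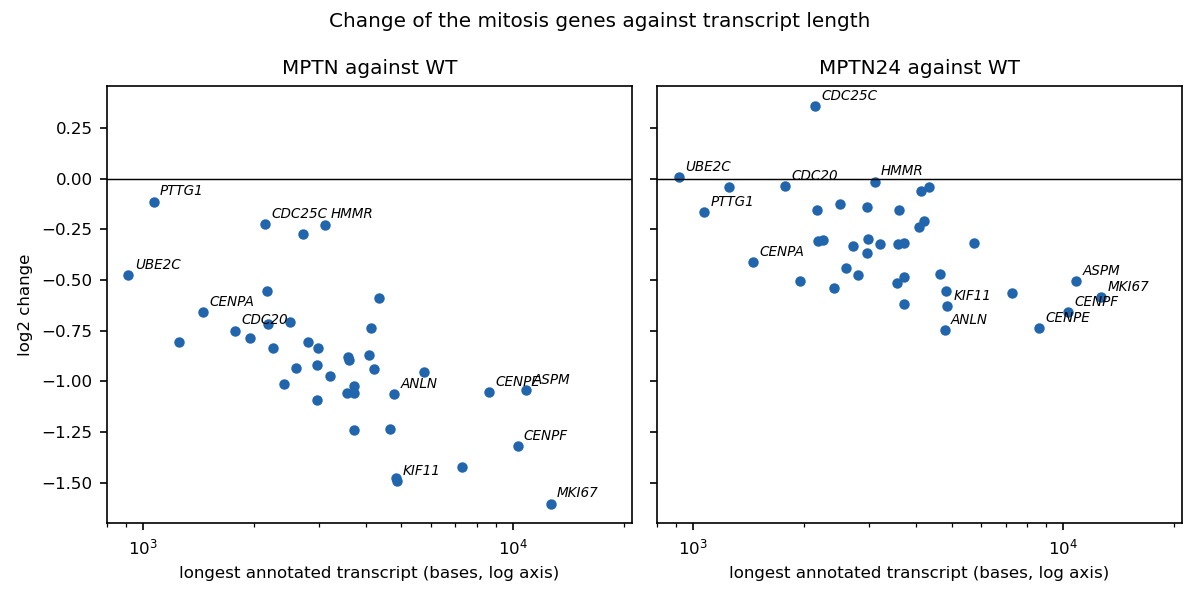
log2 change (vertical axis) of each of the 40 genes in MPTN against WT and in MPTN24 against WT, by the length of its longest annotated transcript (bases, log axis). Points are genes, and points of long transcripts such as MKI67 and CENPF lie lower than those of short ones such as UBE2C and PTTG1.

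Compared per unit of length, the levels spanned a wide range. In WT the highest mean was that of CDC20, at 225 ± 36.1 FPKM (SD, n = 3), followed by PTTG1 at 193 ± 21.1 FPKM, AURKB at 138 ± 26.7 FPKM and UBE2C at 134 ± 22.8 FPKM, and the lowest were KIF15 at 2.44 ± 0.466 FPKM and CENPE at 2.45 ± 0.769 FPKM. The SDs of CDC20 and PTTG1 overlapped in WT, as did those of AURKB and UBE2C. In MPTN, PTTG1 came first at 189.5 ± 14.2 FPKM, against 145 ± 13.3 FPKM for CDC20, and KIF15 was lowest at 0.956 ± 0.127 FPKM. The median of the 40 means was 14.5 FPKM in MPTN, 18.9 FPKM in MPTN24 and 24.8 FPKM in WT.

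RefSeq promoters, from 250 bases before to 50 after a start, were matched for 35 of the 40 genes (41 promoters); those of AURKA, BIRC5, TTK, TPX2 and UBE2C were not analysed here. The hexamer TTTGAA or TTCGAA, on either strand, was in 27 of the 35 genes and 70.7% of their promoters, against 16.4% of 35116 promoters in the table. Between 60 bases before and 10 after the start it was in 22 of the 35 genes (62.9%), against 4.80% of all genes in the table. CCAAT on either strand was in 28 of the 35 genes and 78.0% of their promoters, against 34.6% of all promoters. Both motifs were held by 22 of the 35 genes, counted over all promoters of a gene. Counted per promoter, 6.38% of all promoters in the table held both. In the printed sequences the hexamer began 28 bases before the start in KIF11, 29 in PLK1, 47 and 29 in MKI67, and 28 and 22 in HMMR, in which it occurs side by side. PTTG1 held CCAAT boxes and no hexamer, and KIF2C held neither motif in the 300-base window, as did CENPE.

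Genes with and without the motifs fell. Of the 8 genes without the hexamer, CCNA2, CCNB1, AURKB, CENPE, KIF20A, KIF2C and NCAPH fell in MPTN against WT, by between 0.55 (CCNB1) and 1.09 (NCAPH) on the log2 scale, and PTTG1 had no call. HMMR, with the hexamer side by side and CCAAT boxes, had a log2 change of -0.23, and CDC25C one of -0.23. CDC25C held both motifs only in promoters of starts 6478 and 6551 bases from the gene start annotated in the data. Its promoters at 0 and 14 bases from that start held neither. Some genes that fell were also matched far from their annotated start. The promoters of CENPA, NUSAP1, PLK1 and PRC1, which held both motifs, lay 21767, 12087, 1233 and 1094 bases from it. A match is a description of the letters in the window, and binding was not measured here.

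Falls also outnumbered rises among other mitosis genes on lists chosen for this comparison. The shares of all tested genes that fell, to read these counts against, were 18.1% in MPTN against WT, 12.1% at 24 h and 6.7% in MPTN against MPTN24, and the shares that rose 18.3%, 11.1% and 7.85% in the same order. Of 22 other kinetochore genes, 17 fell and 0 rose in MPTN against WT (median log2 change -0.68), 10 and 0 at 24 h (-0.30), and 9 and 0 in MPTN against MPTN24 (-0.39), where CENPK was the only gene higher at an unadjusted p under 0.05. ZWILCH, of the complex that brings dynein to kinetochores, and SKA3, which couples kinetochores to microtubule ends, changed by -1.13 ± 0.09 and -1.08 ± 0.12 in MPTN against WT, and CENPI and CDCA8 had the largest falls against MPTN24 (-0.82 ± 0.15 and -0.78 ± 0.14). Of 15 other spindle and cytokinesis genes, 15 fell in MPTN against WT (median -0.80), 6 at 24 h (-0.30) and 13 in MPTN against MPTN24 (-0.56), with 0 rises. KIF20B, a kinesin of cytokinesis, and PLK4, the kinase of centriole duplication, changed by -1.26 ± 0.15 and -1.12 ± 0.17 in MPTN against WT. CKAP2L fell by 0.53 at 24 h on the log2 scale, and CIT, citron kinase, and SPAG5 had the largest falls in MPTN against MPTN24 (-0.88 ± 0.15 and -0.77 ± 0.13). Of 11 subunits of condensin and cohesin, 10 fell in MPTN against WT (median -0.95), 9 at 24 h (-0.48) and 7 in MPTN against MPTN24 (-0.47), with 0 rises. SMC3, a cohesin subunit, was at 41.8, 34.2 and 32.1 CPM in MPTN, 44.9, 57.2 and 60.9 CPM in MPTN24, and 76, 115 and 93.1 CPM in WT, with all 3 groups apart. SMC2, of condensin, changed by -1.09 ± 0.12 in MPTN against WT, and the condensin subunits NCAPD2 and NCAPD3 by -0.91 ± 0.12 and -0.68 ± 0.10 in MPTN against MPTN24.

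Of 14 genes of mitotic entry and exit other than the 40, 9 fell in MPTN against WT (median -0.60), 5 at 24 h (-0.27) and 6 in MPTN against MPTN24 (-0.35). CDC25A, a phosphatase that activates CDKs, changed by -1.31 ± 0.11 and CCNF, cyclin F, by -1.03 ± 0.15 in MPTN against WT. FBXO5, the inhibitor of the anaphase-promoting complex known as EMI1, fell by 0.67 at 24 h on the log2 scale, GTSE1 changed by -0.59 ± 0.15 in MPTN against MPTN24, and ARPP19, an inhibitor of the phosphatase PP2A-B55, was the 1 rise of the list (log2 change 0.39 ± 0.10 in MPTN against MPTN24). Of the 15 core subunits of the anaphase-promoting complex, 6 fell and 1 rose in MPTN against WT (median -0.07), where 18.1% of all tested genes fell and 18.3% rose. At 24 h 1 fell (-0.19), where 12.1% of all did, and 2 fell and 1 rose in MPTN against MPTN24 (-0.05), where 6.7% and 7.85% did. ANAPC1 and ANAPC15 changed by -0.66 ± 0.14 and -0.65 ± 0.11 and ANAPC13, the rise, by 0.35 ± 0.10 in MPTN against WT, and ANAPC7 by -0.29 ± 0.09 at 24 h.

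Among 8 transcriptional activators of late cell cycle genes, 5 fell in MPTN against WT (median -0.48), 3 at 24 h (-0.32) and 2 in MPTN against MPTN24 (-0.01), with 0 rises. FOXM1, the forkhead factor of G2 genes, was at 138, 141 and 144 CPM in MPTN, 214, 182 and 206 CPM in MPTN24, and 269, 209 and 207 CPM in WT. MYBL2, the MYB factor that joins MuvB in S phase, was at 74.5, 77.8 and 100.4 CPM in MPTN, 159, 122 and 141 CPM in MPTN24, and 192, 142 and 159 CPM in WT. Both had MPTN below the other groups and MPTN24 overlapping WT: FOXM1 changed by -0.70 ± 0.11 and MYBL2 by -0.96 ± 0.14 in MPTN against WT (edgeR adjusted p = 0.00027 and 0.00015), and by -0.19 ± 0.11 and -0.22 ± 0.14 at 24 h, which did not pass. E2F1, an activator of S phase genes, fell at 24 h (log2 change -0.45 ± 0.12, edgeR adjusted p = 0.016) and did not pass in MPTN against WT (log2 change -0.24 ± 0.12, edgeR adjusted p = 0.14); E2F3 and NFYB, a subunit of NF-Y, changed by -0.46 ± 0.13 and -0.56 ± 0.14 at 24 h.

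Of 14 genes of the repressor complexes and CDK inhibitors, 6 fell and 2 rose in MPTN against WT (median -0.16), 5 fell and 1 rose at 24 h (-0.20), and 1 fell in MPTN against MPTN24 (-0.08). The shares of all tested genes were 18.1% falling and 18.3% rising in MPTN against WT, 12.1% and 11.1% at 24 h, and 6.7% and 7.85% in MPTN against MPTN24; the count of rises in MPTN against WT was below its background share, and that of falls against MPTN24 was near it. CDKN1A, the CDK inhibitor p21, was at 339.9, 361 and 407 CPM in MPTN, 304, 257 and 289.7 CPM in MPTN24, and 133, 171 and 184 CPM in WT. The groups were separate and ran opposite to the mitosis genes, with a rise against WT in MPTN (log2 change 1.18 ± 0.12, edgeR adjusted p = 1.1e-05) and in MPTN24 (log2 change 0.80 ± 0.12, edgeR adjusted p = 0.00075); MPTN against MPTN24 did not pass (log2 change 0.38 ± 0.12, edgeR adjusted p = 0.052). LIN37, of the MuvB core, was the other rise (0.49 ± 0.15 in MPTN against WT). RBL1, the pocket protein p107, changed by -1.07 ± 0.15, and LIN54 and LIN9, of the MuvB core, by -0.89 ± 0.19 and -0.60 ± 0.16 in MPTN against WT, while E2F4 changed by 0.01 ± 0.09 and did not pass.

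The fall was not limited to genes of mitosis. Of 25 DNA replication genes, 25 fell in MPTN against WT (median log2 change -0.73), 15 at 24 h (-0.32) and 17 in MPTN against MPTN24 (-0.44), with 0 rises. MCM10, an initiation factor, and RRM2, of ribonucleotide reductase, changed by -1.63 ± 0.12 and -1.38 ± 0.12 in MPTN against WT, CLSPN by -0.71 ± 0.14 at 24 h, and LIG1 by -0.81 ± 0.10 in MPTN against MPTN24. No difference between these lists and the 40 genes was tested.

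Of the 40 genes, 24 overlap another annotated gene, on either strand, and how the authors' counting split reads in such overlaps is not given in the sources used here. The library kit does not mark strand, so reads of partners on opposite strands cannot be told apart. For 10 of the genes the partner had over 10% of their count in some library. At its highest, the partner had 449% of the count of KIF15 (TMEM42) and 407% of that of CENPA (SLC35F6). It had 370% of the count of CDC25C (FAM53C) and 228% of that of KIF4A (PDZD11). The effect of such partners on the values of single genes was not tested. Large partners lie on the opposite strand for CCNA2 (EXOSC9), CDC25C, KIF4A, KIF20A, NUSAP1 and NCAPG, and on the same strand for BUB1B (PAK6), CENPA (SLC35F6), KIF15 (TMEM42) and PRC1, as does a second partner of NUSAP1. Among the other 30 genes, 27 fell in MPTN against WT, 18 at 24 h and 25 in MPTN against MPTN24, with 0 rises. Annotated copies were looked for by gene name alone, and those found had at most 0.358% of the count of their member.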

How the data were processed

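RNA of HSC-3 was taken with Trizol and made into libraries from 1 µg of total RNA with a TruSeq RNA kit, which does not mark strand, per the labels' protocols. Per the submitters' processing notes the build was GRCh38 and the tools were HISAT2, StringTie, edgeR, CASAVA 1.8, FastQC and Trimmomatic; their settings and the annotation release are not given in the sources used here. Estimated counts (whole numbers) stand in one table that the authors deposited, and FPKM, a unit inferred from the values, in the other; 0 columns were left unused. Groups followed the sample names. The members and lists were chosen with earlier results of these data known.

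Counts were used as deposited. The filter was filterByExpr with a minimum count of 10 and a total of 15. Libraries were scaled by TMM and fitted in a single quasi-likelihood model over the 9 libraries (edgeR 4.0.16, robust, R 4.3.3), with Benjamini-Hochberg adjustment over 16990 genes and a threshold of 0.05. The fit was tested on simulated data. Class means are of log2 CPM with a prior count of 2. All members are described. From every other list, genes were named by the 2 largest called falls and rises of a comparison, together with FOXM1, MYBL2, E2F1, LIN9, RBL1, E2F4 and CDKN1A. Their values are not given for every comparison, so a printed 24 h value need not be the deepest of its list. The lowest 24 h log2 changes were -0.80 among other entry and exit genes, -0.70 among other spindle genes and -0.83 among replication genes. No genome coordinates were converted; positions are on GRCh38, lengths from GENCODE 29 (98.9% of tested genes) and promoters from RefSeq. Alternatives were RLE and upper-quartile scaling, no filter, a filter of 1 CPM in 3 libraries, a replicate block, a fit to just the 2 groups of a comparison, DESeq2 1.42.0, limma 3.58.1 on the FPKM (log2, pseudocount 0.1 or 1), counts divided by 4, and each library left out; GC content and length offsets were added after the data were seen. The labels name no batch. A fold change on the log2 of FPKM plus a pseudocount understates the change of low genes.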

Additional observations from a re-analysis of the deposited data

How the results depend on the processing

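The 36 falls in MPTN against WT were kept in all 20 alternatives, which gave 36 to 38, and 24 of the 34 falls in MPTN against MPTN24 and 6 of the 25 falls at 24 h were kept in all. Same-numbered libraries correlated at -0.03 to 0.07 in their deviations from the group means, and 0 of 9 pairs exceeded 0.1, so the numbers were not taken to pair the libraries; with a replicate block 24, 36 and 34 members fell (24 h against WT, MPTN against WT, MPTN against MPTN24), against 25, 36 and 34 without it. The cause of the changes below was not tested, save that leaving out a library reduces the samples.

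With upper-quartile scaling 15 members fell at 24 h, and the median log2 change was -0.097 for the cyclin genes at 24 h, -0.64 for the cyclin genes and -0.84 for the members in MPTN against WT. With limma on log2 of FPKM plus 0.1, 11 members fell at 24 h; falls over all genes numbered 1867 in MPTN against WT, 1002 at 24 h and 634 in MPTN against MPTN24. The spindle, kinetochore and cyclin medians were then -0.84, -0.80 and -0.59 in MPTN against WT, -0.29, -0.31 and -0.096 at 24 h, and -0.53, -0.42 and -0.34 in MPTN against MPTN24, and the member medians -0.77 in MPTN against WT and -0.51 in MPTN against MPTN24; the median of all genes moved to 0.12 in MPTN against WT. With FPKM plus 1, 12 members fell at 24 h; falls over all genes numbered 1881, 1001 and 639. The class medians were -0.79, -0.65 and -0.57, then -0.25, -0.29 and -0.095, then -0.48, -0.39 and -0.34 in that order, and the member medians -0.71, -0.26 and -0.48; in MPTN against WT spindle minus cyclin changed by -0.27 and kinetochore minus cyclin by -0.20. With GC content and length offsets 11 members fell at 24 h and 1786 of all genes fell in MPTN against MPTN24; the 24 h medians were -0.28 (spindle), -0.29 (kinetochore) and -0.036 (cyclin), those of MPTN against WT -0.88 (kinetochore) and -0.65 (cyclin), and those of MPTN against MPTN24 -0.47 (cyclin) and -0.62 (members). Rises made up 47.9%, 50.4% and 54.0% of all calls (24 h against WT, MPTN against WT, MPTN against MPTN24), and 59.3%, 58.3% and 56.0% with upper-quartile scaling, and 65.5%, 66.4% and 67.9% with limma at a pseudocount of 0.1 and 65.1%, 66.3% and 69.3% at 1.

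With each library left out in turn, ranges are given for MPTN against WT, for 24 h against WT and for MPTN against MPTN24. Members that fell numbered 36 to 37, 9 to 25 and 24 to 35, and members that rose 0 to 0, 0 to 1 and 0 to 0 (CDC25C, 0.50 without MPTN24 2). Over all genes 2441 to 3307, 935 to 2535 and 569 to 1732 fell and 2468 to 3251, 1022 to 2286 and 741 to 1860 rose. The median log2 change was -0.93 to -0.83, -0.37 to -0.28 and -0.60 to -0.55 for the members, -1.04 to -0.96, -0.45 to -0.33 and -0.67 to -0.58 for spindle genes, -1.0 to -0.94, -0.44 to -0.39 and -0.55 to -0.48 for kinetochore genes and -0.73 to -0.62, -0.22 to -0.14 and -0.46 to -0.35 for cyclin genes. Spindle minus cyclin changed by -0.44 to -0.33, -0.26 to -0.14 and -0.24 to -0.15, kinetochore minus cyclin by -0.39 to -0.26, -0.33 to -0.21 and -0.11 to -0.014, and spindle minus kinetochore by -0.063 to -0.033, 0.064 to 0.11 and -0.16 to -0.11.

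Some 24 h changes that had no call turned sign (log2 values in brackets): with upper-quartile scaling for AURKB (0.014), KIF4A (0.016), HMMR (0.042), CDC20 (0.019), with no filter for UBE2C (-0.012), with limma on log2 of FPKM plus 0.1 for PLK1 (0.025), AURKB (0.0078), HMMR (0.041), CDC20 (0.033), with limma on log2 of FPKM plus 1 for PLK1 (0.025), AURKB (0.0076), HMMR (0.038), CDC20 (0.033), with GC content and transcript length offsets for KIF4A (0.025), HMMR (0.23), UBE2C (-0.028). With each library left out these ran from -0.16 to 0.14 for PLK1, from -0.18 to 0.14 for AURKB, from -0.066 to 0.013 for KIF4A, from -0.066 to 0.080 for HMMR, from -0.14 to 0.12 for CDC20, from -0.098 to 0.18 for UBE2C. PTTG1 in MPTN against MPTN24 turned to -0.041 with the offsets and ran from -0.035 to 0.12 with each library left out.

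Depth was not limiting for most members: the lowest mean was 4.77 CPM, for KIF15 in MPTN. Precision is set by 3 libraries a group.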
